A study of Homo sapiens with 24 samples.

Results

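The enzymes of upper glycolysis, from hexokinase to triose phosphate isomerase, were examined through 9 genes of 23106 in the count files. The 9 genes were taken by symbol and are HK1 and HK2 (hexokinases), GPI (glucose phosphate isomerase), PFKL, PFKM and PFKP (phosphofructokinases), ALDOA and ALDOC (aldolases) and TPI1 (triose phosphate isomerase). Polyadenylated RNA had been sequenced from 4 human cancer cell lines, A549 (lung), HCT-116 (colorectal), PC3 (prostate) and T47D (breast), kept in 21% oxygen (normoxia) or in 0.5% oxygen (hypoxia) for 16 h. Each of the 8 groups holds 3 libraries, and the labels name no engineered allele and no other agent in any group. A549 and PC3 cells shared a culture medium and the other lines each had a medium of their own. Line and medium cannot be told apart in any comparison of lines except A549 with PC3. The paper names alternative RNA kits, library kits and sequencers without assigning them to lines, so these too could differ between lines. The labels do not say whether replicates came from separate cultures, so p values measure the spread between these libraries only.

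Upper glycolysis turns glucose into triose phosphates. Hexokinase traps glucose in the cell as its phosphate, GPI isomerizes this to the fructose form, phosphofructokinase adds a further phosphate at the main control point of the pathway, aldolase splits the product and TPI1 interconverts the resulting trioses. HK1 is the widely expressed hexokinase and HK2 the form typical of muscle, fat and many tumors. Phosphofructokinase is a tetramer of subunits named for liver (PFKL), muscle (PFKM) and platelets (PFKP), and ALDOA and ALDOC are the muscle and brain forms of aldolase. In low oxygen, hypoxia-inducible factor (HIF) activates many genes of glycolysis, through DNA sites whose core letters are ACGTG or GCGTG.

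The 250 bases before the transcript start were read from GRCh37 for the 9 genes, and 4 are printed because they bracket the responses described below. ALDOC and HK2 had the largest mean changes in hypoxia, PFKM had the smallest, and PFKP was upregulated in all 4 lines without a copy of the letters searched. Windows run 5′ to 3′ on the strand of the gene, and capitals mark ACGTG or GCGTG on either strand.
ALDOC (chr17:26903914-26904163, minus strand): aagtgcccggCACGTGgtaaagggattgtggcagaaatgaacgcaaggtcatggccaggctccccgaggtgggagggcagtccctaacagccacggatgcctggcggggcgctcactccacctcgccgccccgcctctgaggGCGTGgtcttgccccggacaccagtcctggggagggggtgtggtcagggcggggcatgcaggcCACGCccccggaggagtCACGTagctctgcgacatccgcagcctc
HK2 (chr2:75061004-75061253, plus strand): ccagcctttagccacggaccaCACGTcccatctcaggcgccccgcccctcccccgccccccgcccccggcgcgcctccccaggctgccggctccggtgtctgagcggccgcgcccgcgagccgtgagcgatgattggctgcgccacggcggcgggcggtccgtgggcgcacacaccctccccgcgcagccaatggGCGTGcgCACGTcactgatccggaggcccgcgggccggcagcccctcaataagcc
PFKM (chr12:48512897-48513146, plus strand): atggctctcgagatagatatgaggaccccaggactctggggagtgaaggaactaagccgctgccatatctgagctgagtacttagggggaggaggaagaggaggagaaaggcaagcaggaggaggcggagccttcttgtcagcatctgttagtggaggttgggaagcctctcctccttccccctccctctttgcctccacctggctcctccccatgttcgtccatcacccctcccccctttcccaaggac
PFKP (chr10:3109490-3109739, plus strand): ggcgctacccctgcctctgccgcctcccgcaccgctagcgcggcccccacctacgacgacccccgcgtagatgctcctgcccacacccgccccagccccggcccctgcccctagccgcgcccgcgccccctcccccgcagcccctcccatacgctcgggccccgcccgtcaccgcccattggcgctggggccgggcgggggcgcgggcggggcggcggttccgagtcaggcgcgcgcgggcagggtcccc

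The ALDOC window held 4 copies, counting the palindrome CACGTG once, and the HK2 window held 3. In the HK2 window, a copy on each strand lay close together, with first bases 55 and 48 bases before the start. HK1, GPI, PFKL and ALDOA each had 1 copy, and PFKM, PFKP and TPI1 had 0. At least 1 copy was found in 66.7% of the 9 windows, against 60.7% of the windows of 11144 protein-coding genes tested in all 4 lines. For 2 or more copies, the shares were 22.2% of the 9 and 27.5% of the 11144, and for 3 or more, 22.2% and 10.3%, so the order depends on the number of copies asked for. A match of letters is a description of the sequence, and binding was not examined here. The paper assayed HIF binding in these lines and lists HK2, GPI and ALDOA as bound and induced in all of its lines. It names PFKL, PFKP and TPI1 among genes bound and induced in all but 1 of them. Induction was called there from RNA data that include these lines, so it is not independent of the calls below. Each start is that of the reference transcript (MANE Select), and several of these genes have other starts that were not examined.

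Library totals lay between 22698584 and 62850747 counts, and no pair of libraries held identical counts. Lowest counts of the 9 genes in any library were 62 for ALDOC and 65 for HK2. The 4 genes used to check the response to hypoxia, CA9, VEGFA, EGLN3 and ANKRD37, were called higher in all 4 lines. The paper selected ANKRD37 as induced in all of its lines and EGLN3 in all but 1, from RNA data that include these lines. Neither is therefore an independent check. The line markers gave a mixed picture, and some were higher outside their own line. ESR1, PGR and GATA3 were high in T47D cells but TFF1 was not (median, 3.10 CPM, which are counts relative to TMM-normalized library size), CDX2 was detected in HCT-116 cells with VIL1, CDH17 and GPA33 at no more than 12 counts, KLK3 was at 0 in PC3 cells, where HOXB13 was detected, and NKX2-1, SFTPB, SFTPC and NAPSA had no more than 34 counts in A549 libraries. CDH17, listed for HCT-116 cells, had 454 to 923 counts in A549 libraries. NKX2-1, listed for A549 cells, had 39 to 187 counts in HCT-116 libraries. The TFF1 median was higher in PC3 than in T47D cells, at 20.8 CPM, and KLK3 was at 0 in every line. KRT8 and KRT18, keratins of simple epithelia, were high in all lines. EPCAM, also an epithelial marker, had a median of 3.30 CPM in A549 cells and of 268, 390 and 179 CPM in HCT-116, PC3 and T47D cells. PTPRC, a marker of blood cells, did not exceed 17 counts. COL1A1, a collagen gene, had medians between 16.6 and 38.6 CPM in the lines. In bulk RNA, fewer cells of a kind and less RNA per cell cannot be told apart.

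Of the 9 genes, 8 were upregulated in hypoxia in every line, and PFKM stood apart. Genes were called where the fold change exceeded 1.2 and the p value of edgeR's quasi-likelihood test, adjusted by Benjamini and Hochberg's method over every gene tested in the line, was under 0.05. In A549 cells, 8 genes were called higher and PFKM was called lower, where 17.6% of all genes tested were called higher and 17.8% lower. All 9 were called higher in HCT-116 cells, where the shares of all genes were 23.3% higher and 27.0% lower. PC3 cells had 8 higher calls and 0 lower (16.6% and 15.7% of all genes), as did T47D cells (6.55% and 6.69%). Without 1 library, the shares of all genes called higher and lower ranged down to 9.57% and 6.40% in PC3 cells (without hypoxic replicate 1), and to 1.26% and 0.133% in T47D cells (without normoxic replicate 1). With scaling to total counts, the median of all genes moved to -0.13 in A549 and -0.12 in T47D cells on the log2 scale, and the share of higher calls among all calls moved from 49.8% to 33.9% and from 49.5% to 32.1%. Under that scaling, 8 of the 9 genes were still called higher in A549 cells and 7 in T47D cells.

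On the log2 scale, the median change of the 9 genes was 1.35 in A549, 2.62 in HCT-116, 0.68 in PC3 and 2.49 in T47D cells, beside medians of all genes between -0.03 and -0.01. Hypoxic libraries lay above all normoxic ones for 8 of the 9 genes in A549, 9 in HCT-116, 8 in PC3 and 9 in T47D cells. The same held for 23.3%, 28.2%, 25.8% and 16.7% of all genes tested. In A549 cells, hypoxic libraries lay below all normoxic ones for PFKM, as for 24.8% of all genes, and no such case was found among the 9 in HCT-116 (32.1% of all genes), PC3 (25.6%) or T47D cells (15.8%). Together the 9 genes took 0.432% ± 0.0281 (SD, n = 3) of the counts of normoxic A549 libraries and 1.10% ± 0.005 of hypoxic ones. The change was from 0.218% ± 0.0606 to 1.21% ± 0.139 in HCT-116, from 0.349% ± 0.0377 to 0.545% ± 0.0179 in PC3, and from 0.205% ± 0.0371 to 0.918% ± 0.00858 in T47D cells. Replicate 2 was the lowest of the normoxic HCT-116 libraries for 8 of the 9 genes, and replicate 3 the highest of the normoxic T47D libraries for all 9. Without the former, 8 genes were called in HCT-116 cells (PFKM was lost), and without the latter, 8 were called in T47D cells.

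**Figure D1:**
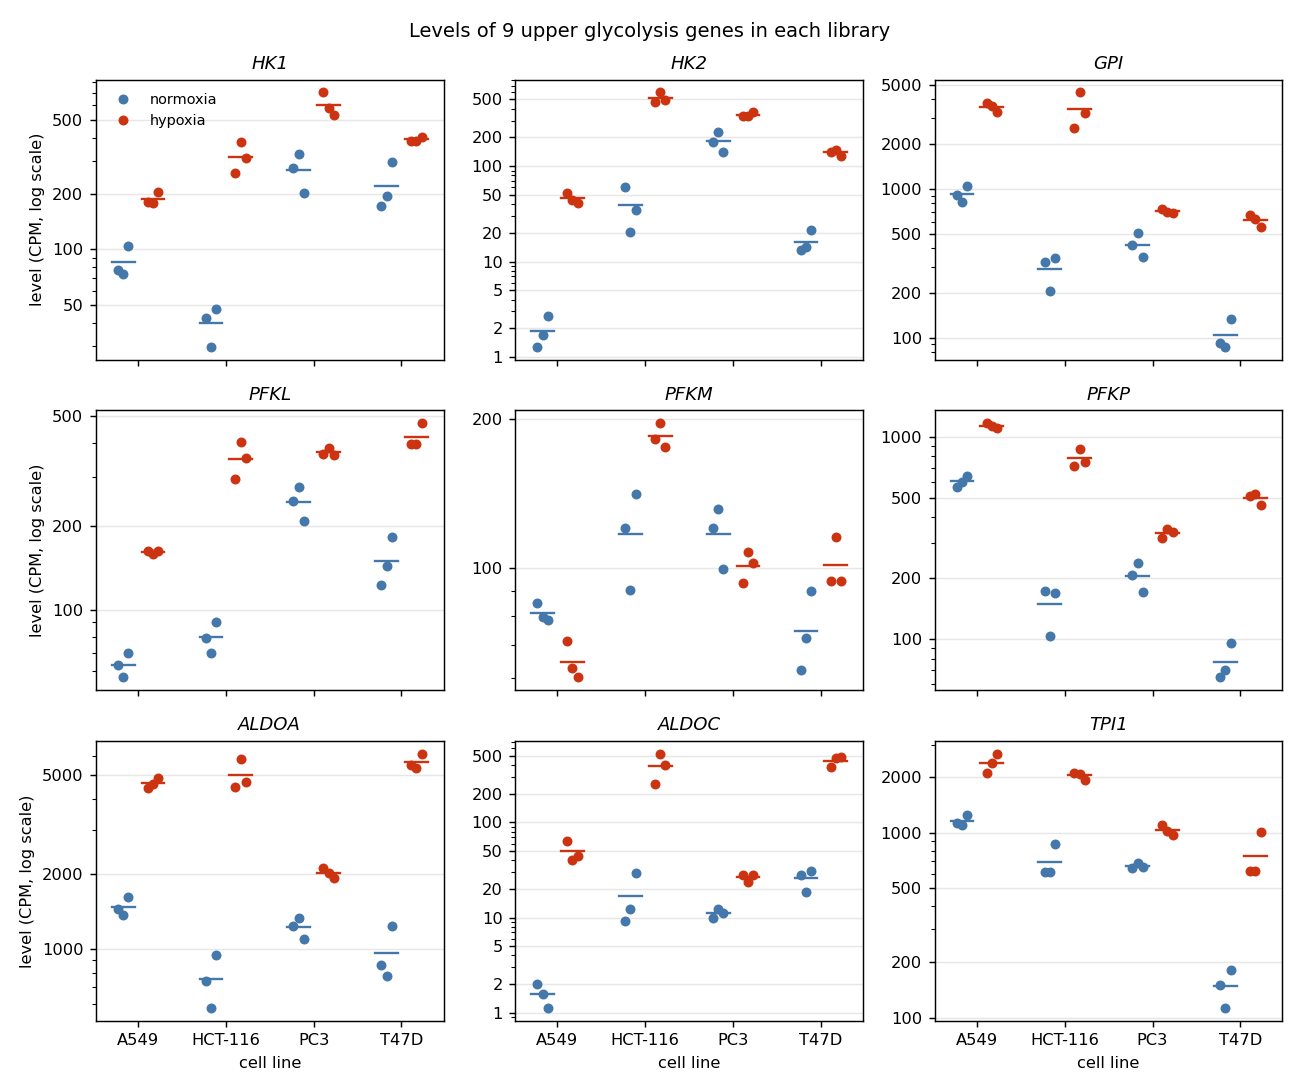
Level of each gene (CPM, scaled to library size with TMM normalization, log scale) in each of the 24 libraries, by cell line, with normoxia in blue, hypoxia in red and a bar at the mean of 3 libraries. Red points lie above blue points in every line for 8 genes, and the exception is PFKM, where they lie below in A549 cells and overlap in PC3 cells.

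HK1 (chr10:71029740-71161640 in GRCh37, plus strand, 18 exons in the reference transcript) catalyzes the trapping of glucose in most tissues. In A549 cells, HK1 was at 78.0, 73.3 and 104 CPM in normoxia and 181, 178 and 203 CPM in hypoxia. The HCT-116 levels of HK1 were 43.0, 29.9 and 47.9 CPM in normoxia, the lowest of the lines, and 259, 380 and 312 CPM in hypoxia. In PC3 cells, HK1 was at 274, 329 and 201 CPM in normoxia, overlapping T47D cells, and at 702, 576 and 531 CPM in hypoxia, above the libraries of the other lines. No line showed an overlap between the states. T47D levels of HK1 were 172, 194 and 296 CPM in normoxia and 383, 386 and 406 CPM in hypoxia. HK1 was upregulated by 2.86 ± 0.24 (SE) on the log2 scale in HCT-116 cells (adjusted p = 1.48e-05), against 1.13 ± 0.14 in A549 (adjusted p = 0.000144) and 1.12 ± 0.16 in PC3 cells (adjusted p = 0.00228). The T47D estimate of HK1 was 0.76 ± 0.23 and lay at the threshold (adjusted p = 0.0490). That call was lost with RLE size factors (adjusted p = 0.0504), with scaling to total counts (adjusted p = 0.0611), and without hypoxic replicate 1 or 2 or normoxic replicate 1 or 2 (adjusted p = 0.127, 0.108, 0.246 and 0.163). It held for HK1 with the replicate block (adjusted p = 0.0232), with DESeq2 (adjusted p = 0.0110), without a filter or with a higher count minimum (adjusted p = 0.0397 and 0.0443), in the fit of all 24 libraries (adjusted p = 0.00717), and without replicate 3 of hypoxia or normoxia (adjusted p = 0.0454 and 0.0126).

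HK2 (chr2:75061254-75120486, plus strand, 18 exons) is the hexokinase most often linked to the high glucose use of tumors. In A549 cells, HK2 was barely present in normoxia, at 1.28, 1.72 and 2.67 CPM, and reached 52.7, 44.04 and 41.5 CPM in hypoxia. HCT-116 cells had HK2 levels of 61.2, 20.3 and 35.1 CPM in normoxia and 471, 593 and 491 CPM in hypoxia. In PC3 cells, HK2 was already at 179, 229 and 140 CPM in normoxia and at 335, 336 and 370 CPM in hypoxia. The normoxic PC3 libraries thus held more HK2 than the hypoxic A549 libraries. T47D levels of HK2 were 13.3, 14.1 and 21.2 CPM in normoxia and 143, 149 and 127 CPM in hypoxia. HK2 was upregulated 24.2-fold in A549, 12.2-fold in HCT-116, 1.84-fold in PC3 and 8.17-fold in T47D cells, with log2 fold changes of 4.60 ± 0.23, 3.61 ± 0.35, 0.88 ± 0.14 and 3.03 ± 0.22 (adjusted p = 9.93e-08, 3.26e-05, 0.0034 and 4.82e-06). Among all genes tested, HK2 had the 12th largest log2 fold change of 13897 in A549 cells and the 601st of 13466 in PC3 cells.

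The balance between the hexokinases was compared as the share of HK2 in the length-scaled counts of HK1 and HK2, counts divided by the length of the reference transcript. In A549 cells, the HK2 share was 1.04%, 1.48% and 1.62% in normoxia and 15.7%, 13.7% and 11.6% in hypoxia. HCT-116 cells had HK2 shares of 47.7%, 30.3% and 31.9% in normoxia and 53.8%, 49.98% and 50.2% in hypoxia, with normoxic replicate 1 apart from the others. PC3 cells had HK2 shares of 29.4%, 30.8% and 30.9% in normoxia and 23.4%, 27.2% and 30.9% in hypoxia. In T47D cells, the HK2 share was 4.72%, 4.46% and 4.38% in normoxia and 19.2%, 19.8% and 16.7% in hypoxia. The states did not overlap in 3 lines and overlapped in PC3 cells, where the mean change was -3.21 percentage points. Over the 4 lines, the HK2 share rose by a mean of 9.45 points (two-sided exact permutation of the states within lines, p = 0.000663, adjusted p = 0.000828 over the 5 shares tested). Within 1 line, 3 against 3 libraries cannot give an exact two-sided p under 0.1. The change in the HK2 share differed between the lines (exact permutation of the 12 same-numbered pairs over the lines, adjusted p = 0.0151), by up to 17.9 points.

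HK1 nevertheless supplied most hexokinase transcripts in 3 lines. As RPKM (CPM per kb of transcript), the sum of HK1 and HK2 went from 23.96 ± 4.70 to 60.2 ± 3.34 in A549 cells, a ratio of the means of 2.51, and HK1 made up 78.3% of the increase. The sum went from 18.1 ± 5.59 to 180 ± 28.1 RPKM in HCT-116 cells, a ratio of 9.97, and HK2 made up 52.6% of the increase. Ratios were 2.15 in PC3 and 2.08 in T47D cells, with HK1 at 76.1% and 68.5% of the increase. HKDC1, a further hexokinase gene, held 44.4% ± 2.45 of the length-scaled counts of all hexokinase genes counted in normoxia and 29.1% ± 2.18 in hypoxia in A549 cells, and less than 1% in each group of the other lines. The HKDC1 mean went from 18.98 to 24.69 RPKM in A549 cells, and the sum of HK1 and HK2 and its percentages leave it out. HK3 had at most 2 counts in any library. With all of these in the sum, the HK2 share in A549 cells went from 0.772% to 9.66%.

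GPI (chr19:34850385-34893318, plus strand, 18 exons) links the hexokinase and phosphofructokinase steps. In A549 cells, GPI ranged from 808 to 1036 CPM in normoxia, above the libraries of the other lines, and from 3268 to 3748 CPM in hypoxia, within the range of HCT-116 cells. In HCT-116 cells, GPI was at 320, 205 and 344 CPM in normoxia and at 2562, 4432 and 3245 CPM in hypoxia, a log2 fold change of 3.44 ± 0.29 (adjusted p = 1.58e-05). PC3 levels of GPI ranged from 346 to 503 CPM in normoxia and from 690 to 730 CPM in hypoxia, and T47D levels from 86.6 to 134 and from 553 to 665 CPM. No overlap between the states was seen for GPI in any line. The log2 fold change of GPI was 1.94 ± 0.12 in A549, 0.69 ± 0.12 in PC3 and 2.49 ± 0.24 in T47D cells (adjusted p = 9.38e-07, 0.00407 and 4.31e-05). Part of the annotated GPI exons, 542 bases, is shared with another annotated gene on the same strand, and the same holds for 120 bases of PFKP.

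**Figure D2:**
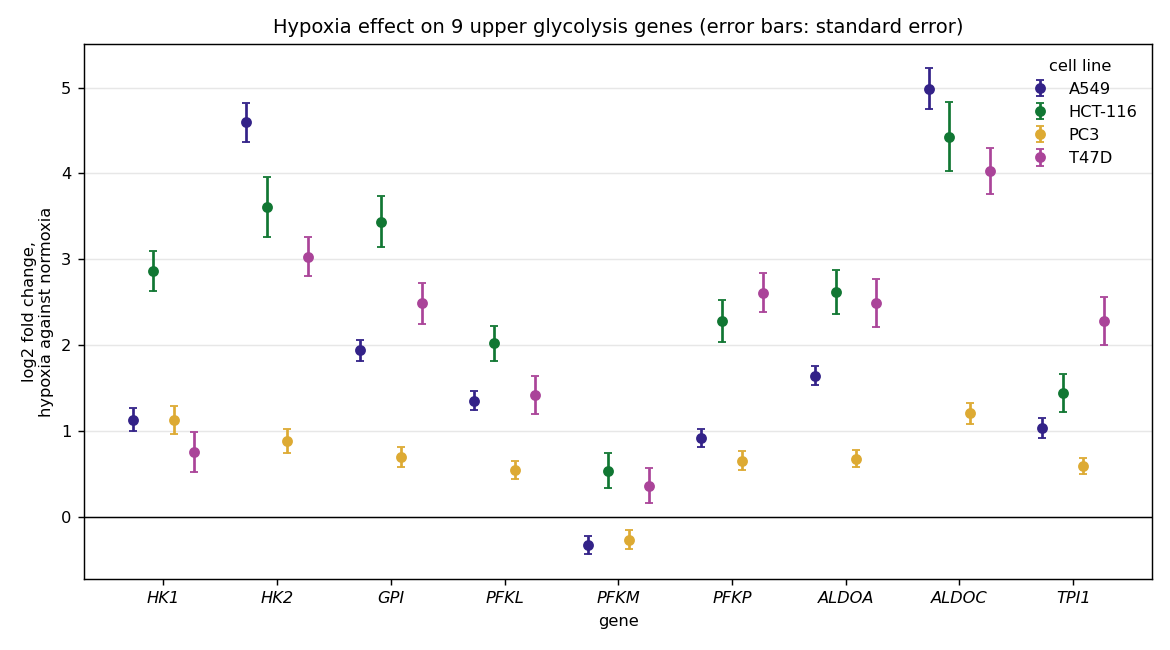
Log2 fold change in hypoxia against normoxia (edgeR) for each gene, with the cell lines in color. Bars are the standard error derived from the F statistic of the test. PC3 cells had the smallest of the 4 estimates for 7 genes, and the estimates for PFKM lay between -0.33 and 0.54.

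The phosphofructokinase subunits did not move together. PFKP (chr10:3108525-3179910, plus strand, 22 exons), the platelet-type subunit, was upregulated in all lines. In A549 cells, PFKP was at 566, 596 and 644 CPM in normoxia and at 1170, 1131 and 1111 CPM in hypoxia. HCT-116 levels of PFKP were 174, 104 and 169 CPM in normoxia and 719, 876 and 752 CPM in hypoxia. PC3 levels of PFKP were 208, 239 and 170 CPM in normoxia and 317, 349 and 340 CPM in hypoxia, the narrowest gap of the 4 lines. T47D cells had the least PFKP in normoxia, at 64.6, 70.7 and 95.9 CPM, and reached 508, 522 and 460 CPM in hypoxia. The log2 fold change of PFKP was 0.91 ± 0.10 in A549, 2.28 ± 0.24 in HCT-116, 0.66 ± 0.11 in PC3 and 2.61 ± 0.23 in T47D cells (adjusted p = 0.000105, 5.52e-05, 0.00408 and 1.83e-05).

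PFKL (chr21:45719934-45747259, plus strand, 22 exons), the liver-type subunit, was also upregulated in all lines, with log2 fold changes of 1.35 ± 0.11 in A549, 2.02 ± 0.21 in HCT-116, 0.55 ± 0.10 in PC3 and 1.42 ± 0.22 in T47D cells (adjusted p = 6.35e-06, 4.49e-05, 0.00531 and 0.00231). PFKL ranged from 57.0 to 69.7 CPM in normoxic and from 159 to 163 CPM in hypoxic A549 libraries. PFKL in PC3 cells ranged from 210 to 278 CPM in normoxia and from 363 to 382 CPM in hypoxia. The HCT-116 libraries held 69.6 to 90.2 and 296 to 404 CPM of PFKL, and the T47D libraries 123 to 183 and 395 to 471 CPM.

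PFKM (chr12:48498922-48540187, plus strand, 23 exons), the muscle-type subunit, was called in opposite directions in A549 and HCT-116 cells, by small amounts. In A549 cells, PFKM was at 84.9, 79.5 and 78.4 CPM in normoxia and at 71.0, 62.7 and 60.1 CPM in hypoxia. HCT-116 levels of PFKM were 121, 90.3 and 141 CPM in normoxia and 182, 196 and 176 CPM in hypoxia. These are the 2 lines in which PFKM was called, lower in the former and higher in the latter. PC3 levels of PFKM were 120, 132 and 99.7 CPM in normoxia and 93.2, 108 and 102 CPM in hypoxia, and T47D levels 62.3, 72.1 and 89.8 CPM and 94.2, 116 and 94.3 CPM. The hypoxic PC3 libraries overlapped the normoxic ones, while those of T47D cells lay above. The log2 fold change of PFKM was -0.33 ± 0.11 in A549 (adjusted p = 0.0324), 0.54 ± 0.20 in HCT-116 (adjusted p = 0.0373), -0.26 ± 0.11 in PC3 (adjusted p = 0.0797) and 0.36 ± 0.20 in T47D cells (adjusted p = 0.233).

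Both calls of PFKM were lost when single libraries were left out. The A549 call was lost without hypoxic replicate 2 or 3 or normoxic replicate 1 or 2 (adjusted p = 0.143, 0.0873, 0.124 and 0.0813) and in a fit of all 24 libraries (adjusted p = 0.171). The HCT-116 call of PFKM was lost without hypoxic replicate 1, 2 or 3 or normoxic replicate 2 (adjusted p = 0.0522, 0.0996, 0.0816 and 0.056) and with scaling to total counts (adjusted p = 0.0686). PFKM was called lower in PC3 cells without normoxic replicate 3 (adjusted p = 0.0115), and higher in T47D cells in the fit of all 24 libraries (adjusted p = 0.0467). The sign of each line's estimate was the same under all 13 alternatives run for that line.

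The share of PFKM in the length-scaled counts of the 3 subunit genes fell over the 4 lines and lay lower in hypoxia in each. It was 10.4%, 9.46% and 8.62% in normoxic and 4.38%, 4.01% and 3.90% in hypoxic A549 libraries. HCT-116 cells had PFKM shares of 29.5%, 31.6% and 32.4% in normoxia and 13.6%, 11.9% and 12.3% in hypoxia. In PC3 cells, the PFKM share was 19.2%, 18.6% and 19.1% in normoxia and 10.9%, 11.7% and 11.5% in hypoxia. T47D cells went from 23.2%, 23.4% and 22.6% to 8.47%, 10.1% and 8.30% of PFKM. No line showed an overlap, and the mean change over lines was -11.4 points (two-sided exact permutation of the states within lines, p = 1.25e-05, the smallest that the 160000 arrangements can give, adjusted p = 2.08e-05). The change in the PFKM share in points differed between lines (exact permutation, adjusted p = 0.000325), from -5.39 in A549 to -18.6 in HCT-116 cells. A fall in points cannot exceed the normoxic share, which had a mean of 9.485% in A549 and 31.17% in HCT-116 cells. Relative changes were not compared between lines.

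The share of PFKP rose as that of PFKM fell, as shares of a common sum must do in part. The mean PFKP share went from 82.7% ± 1.08 to 85.0% ± 0.160 in A549, from 46.0% ± 3.70 to 62.3% ± 0.666 in HCT-116, from 39.0% ± 0.664 to 44.4% ± 0.627 in PC3 and from 27.9% ± 0.805 to 51.6% ± 3.44 in T47D cells. The states did not overlap in any line, and the mean change was 11.9 points (exact permutation, p = 1.25e-05, adjusted p = 2.08e-05). With lengths of all merged exons, the A549 libraries overlapped in the PFKP share (77.2% ± 1.26 and 78.0% ± 0.262). The change in the PFKP share differed between lines (exact permutation, adjusted p = 0.000649), and was largest in T47D cells, at 23.7 points. In T47D cells the leading subunit by share was PFKL in normoxia and PFKP in hypoxia with reference transcript lengths. With merged exon lengths, PFKL led in both states there, at 62.1% and 53.3% against 19.8% and 39.2% for PFKP.

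The PFKL share had no common direction. In A549 cells it went from 7.84% ± 0.556 to 10.9% ± 0.295, and in PC3 cells from 42.0% ± 0.517 to 44.2% ± 0.951, without overlap. PFKL overlapped between the states in HCT-116 cells (22.8% ± 2.74 and 25.1% ± 1.48) and lay lower in hypoxic T47D libraries (49.1% ± 0.569 and 39.5% ± 4.05). The mean change in the PFKL share was -0.49 points (exact permutation, p = 0.712), and its sign turned with other transcript lengths. The change differed between lines (exact permutation, adjusted p = 0.0151). Summed over the 3 genes, phosphofructokinase went from 277 ± 15.5 to 510 ± 13.4 RPKM in A549, from 122 ± 25.8 to 478 ± 52.2 in HCT-116, from 200 ± 30.0 to 287 ± 11.5 in PC3 and from 105 ± 21.3 to 367 ± 6.17 in T47D cells. By reference transcript lengths, PFKP made up 87.7%, 67.7%, 56.7% and 61.1% of these increases. Merged exons span 4753 bases for PFKP, against 2626 in its reference transcript, and 2951 against 2907 for PFKL. These percentages were not recomputed with merged exon lengths, which give PFKP less weight. With those lengths, PFKL held more of the hypoxic sum than PFKP in PC3 (58.05% against 32.7%) and T47D cells (53.3% against 39.18%). PFKP therefore need not make up most of the increase in these lines.

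**Figure D3:**
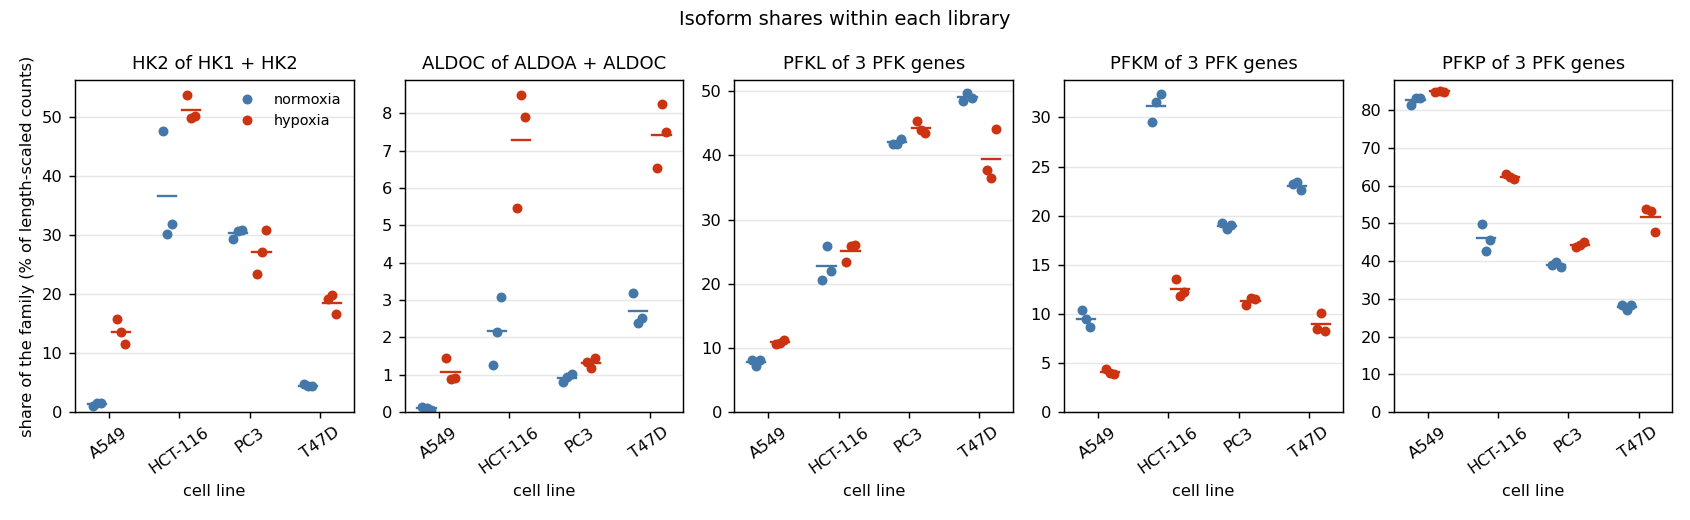
Share of each isoform in the length-scaled counts of its family (%, each panel with its own axis from 0), by cell line, for the 3 normoxic (blue) and 3 hypoxic (red) libraries, with bars at the means. The PFKM share lies lower and the PFKP and ALDOC shares lie higher in hypoxia in all 4 lines, while the HK2 share overlaps in PC3 cells.

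ALDOA (chr16:30075485-30081778, plus strand, 10 exons), the aldolase of muscle and most other tissues, was the most abundant of the 9 genes per kb of transcript in every line in hypoxia. ALDOA ranged from 1374 to 1623 CPM in normoxic and from 4430 to 4898 CPM in hypoxic A549 libraries. In HCT-116 cells, ALDOA ranged from 577 to 942 CPM in normoxia and from 4485 to 5805 CPM in hypoxia, and in PC3 cells from 1097 to 1327 and from 1920 to 2125 CPM. T47D levels of ALDOA were 864, 778 and 1230 CPM in normoxia and 5527, 5336 and 6112 CPM in hypoxia. The hypoxic T47D mean was the highest of the lines, though 1 hypoxic HCT-116 library lay above 2 of the T47D libraries. By mean RPKM among 21584 symbols with a transcript length, ALDOA moved from rank 92 to rank 3 in T47D, from 183 to 9 in HCT-116, from 85 to 14 in A549 and from 75 to 29 in PC3 cells. The log2 fold change of ALDOA was 1.65 ± 0.11 in A549, 2.62 ± 0.26 in HCT-116, 0.68 ± 0.10 in PC3 and 2.49 ± 0.28 in T47D cells (adjusted p = 1.41e-06, 3.41e-05, 0.00195 and 0.00016).

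ALDOC (chr17:26900133-26903966, minus strand, 9 exons), the brain form, had the largest mean log2 fold change of the 9 genes. In A549 cells, ALDOC was at 2.01, 1.58 and 1.12 CPM in normoxia and at 64.2, 40.4 and 44.7 CPM in hypoxia. HCT-116 levels of ALDOC were 9.30, 12.5 and 29.3 CPM in normoxia and 254, 527 and 397 CPM in hypoxia. PC3 cells had ALDOC levels of 9.82, 12.3 and 11.1 CPM in normoxia and 28.1, 23.9 and 27.7 CPM in hypoxia. The PC3 levels were thus close to those of normoxic T47D cells even in hypoxia. T47D levels of ALDOC were 27.9, 18.7 and 31.1 CPM in normoxia and 379, 470 and 486 CPM in hypoxia. ALDOC was upregulated 31.7-fold in A549, 21.5-fold in HCT-116, 2.31-fold in PC3 and 16.3-fold in T47D cells, with log2 fold changes of 4.99 ± 0.24, 4.43 ± 0.40, 1.21 ± 0.12 and 4.03 ± 0.26 (adjusted p = 7.47e-08, 2.08e-05, 0.000479 and 1.97e-06). Without normoxic replicate 3, the HCT-116 estimate for ALDOC was 5.08. ALDOC ranked 7th of 13897 genes by log2 fold change in A549, 9th of 13614 in HCT-116, 281st of 13466 in PC3 and 30th of 14085 in T47D cells.

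ALDOC stayed a small part of aldolase. The ALDOC share of the length-scaled counts of both genes went from 0.110% ± 0.0363 to 1.09% ± 0.319 in A549, from 2.16% ± 0.906 to 7.28% ± 1.60 in HCT-116, from 0.920% ± 0.111 to 1.33% ± 0.130 in PC3 and from 2.70% ± 0.425 to 7.43% ± 0.857 in T47D cells. The states did not overlap in any line, and the mean change was 2.81 points (exact permutation, p = 1.25e-05, adjusted p = 2.08e-05). The change in the ALDOC share in points differed between lines (exact permutation, adjusted p = 0.00498), and relative changes were not compared. ALDOA made up between 91.7% and 98.5% of the increase in aldolase RPKM in the 4 lines. The sum of ALDOA and ALDOC went from 903 ± 78.3 to 2865 ± 139 RPKM in A549, from 470 ± 117 to 3295 ± 509 in HCT-116, from 751 ± 71.0 to 1250 ± 62.6 in PC3 and from 600 ± 150 to 3727 ± 263 in T47D cells. ALDOC shares 293 exonic bases with an antisense gene, and the strand setting of the counting is not given in the sources used here, so counts there are uncertain. ALDOA has pseudogenes ALDOAP1 and ALDOAP2 and shares 1472 exonic bases with another annotated gene on the same strand.

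**Figure D4:**
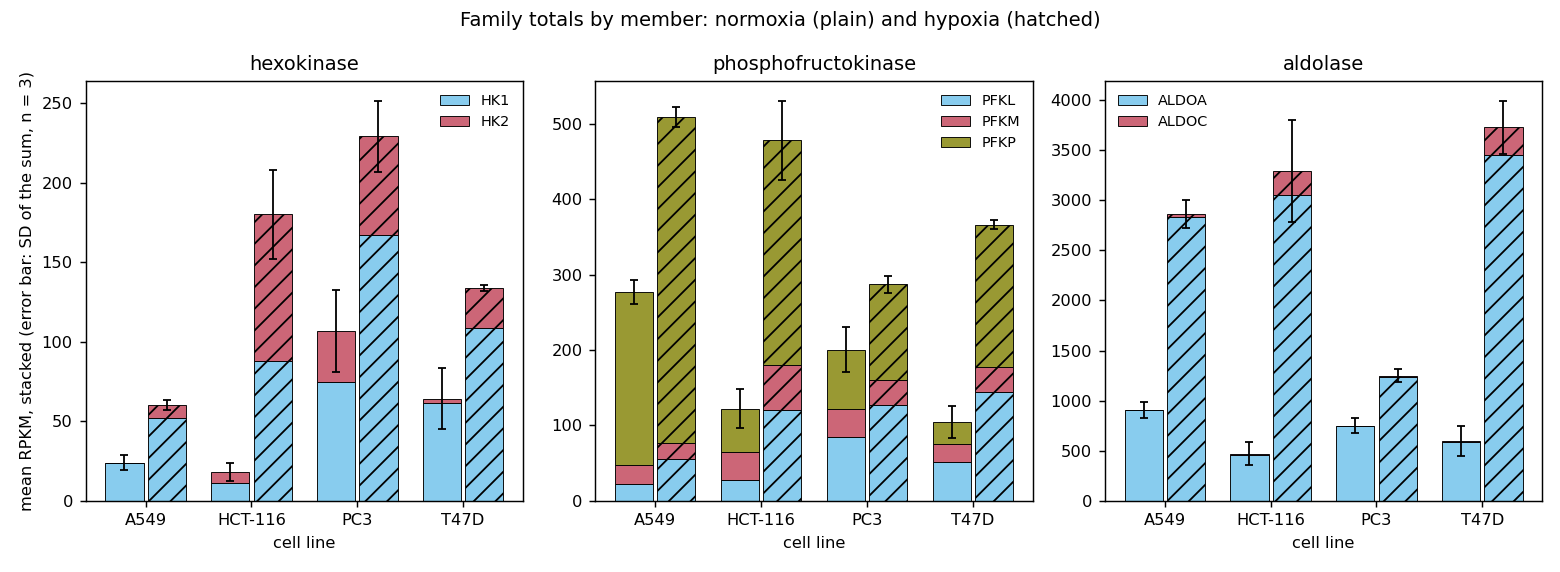
Summed level of the examined genes of each enzyme family (mean RPKM, stacked by gene, error bar the SD of the sum over 3 libraries) in normoxia (plain) and hypoxia (hatched), by cell line. The hexokinase bars hold HK1 and HK2 and leave out HKDC1. At reference transcript lengths, PFKP fills most of the added phosphofructokinase. ALDOA fills most of the added aldolase, and HK1 most of the added sum of HK1 and HK2 except in HCT-116 cells.

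TPI1 (chr12:6976283-6980112, plus strand, 7 exons) is the last enzyme of the upper pathway. In T47D cells, TPI1 was at 150, 113 and 180 CPM in normoxia and at 620, 621 and 1014 CPM in hypoxia, with hypoxic replicate 3 apart from the others. TPI1 ranged from 1107 to 1253 CPM in normoxic and from 2102 to 2683 CPM in hypoxic A549 libraries. HCT-116 libraries held 611 to 869 and 1937 to 2112 CPM of TPI1, and PC3 libraries 647 to 688 and 970 to 1107 CPM. The states were apart in all 4 lines. The log2 fold change of TPI1 was 1.03 ± 0.12 in A549, 1.44 ± 0.22 in HCT-116, 0.59 ± 0.09 in PC3 and 2.28 ± 0.28 in T47D cells (adjusted p = 0.000104, 0.000275, 0.00296 and 0.00036). TPI1 shares 14 exonic bases with SPSB2 on the other strand. It has 4 pseudogenes by symbol, and fragments without a unique position were left out of the counts, which lowers genes with near-identical copies.

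The hypoxia effect differed between the lines for all 9 genes (interaction of line and state in an edgeR fit of all 24 libraries), where 18.3% of all genes tested passed the same threshold. That background moved from 2940 of 16089 genes to 1371 of 16327 without normoxic HCT-116 replicate 2, to 1715 of 16348 without hypoxic HCT-116 replicate 3 and to 4435 of 15491 with DESeq2, and all 9 genes passed in each. Adjusted p values ran from 9.32e-06 for PFKP to 0.00742 for PFKM. HCT-116 cells had the largest estimate for 5 genes (HK1, GPI, PFKL, PFKM and ALDOA), A549 cells for HK2 and ALDOC, and T47D cells for PFKP and TPI1. The smallest estimate was that of PC3 cells for 7 genes. For HK1 it was that of T47D cells and for PFKM that of A549 cells. Pairs of lines were not tested for their effects.

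Levels in normoxia differed between the lines for all 9 genes, as they did for 93.5% of all genes tested, so the count is near the background. The 9 genes passed the pairwise test in 8 cases for A549 against HCT-116 (64.9% of all genes), 8 for A549 against PC3 (60.0%), 8 for A549 against T47D (66.6%), 5 for HCT-116 against PC3 (65.6%), 7 for HCT-116 against T47D (68.5%) and 7 for PC3 against T47D cells (67.8%). HK2 had the widest range, with means 96.5 times apart between PC3 and A549 cells, and each neighbor in the order PC3, HCT-116, T47D and A549 differed (largest adjusted p = 0.00314, edgeR, pairwise contrasts). ALDOC followed in the order T47D, HCT-116, PC3 and A549, with means 16.5 times apart, and neither T47D from HCT-116 (adjusted p = 0.12) nor HCT-116 from PC3 (adjusted p = 0.117) passed the test. The HK1 mean was highest in PC3, from which T47D did not differ beyond the spread (adjusted p = 0.318), followed by A549 and HCT-116. GPI, PFKP and TPI1 were highest in A549 and lowest in T47D cells, with means 8.80, 7.81 and 7.90 times apart. Between these ends, HCT-116 and PC3 cells differed in GPI (adjusted p = 0.0496) but not in PFKP (adjusted p = 0.066) or TPI1 (adjusted p = 0.779). PFKL ran from PC3 through T47D to HCT-116 and A549, the latter pair not passing the test (adjusted p = 0.113). ALDOA and PFKM had the narrowest ranges, 1.96 and 1.57 times. No neighbors passed the test for ALDOA (adjusted p = 0.298, 0.174 and 0.182 down the order A549, PC3, T47D and HCT-116), and for PFKM PC3 differed from A549 (adjusted p = 0.0206) but HCT-116 from PC3 (unadjusted p = 0.989) and A549 from T47D (adjusted p = 0.594) did not.

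Across the 24 libraries, which share lines and oxygen states, log2 levels of the 9 genes correlated in groups. GPI, PFKP and TPI1 had Pearson's r between 0.90 and 0.95 with each other, HK1 and PFKL had 0.91 and HK2 and PFKL 0.87, while HK1 and TPI1 had 0.07. Among 10881 other genes, those most like each member by r were GAPDH (0.97) and CREB3L2 (0.96) for GPI, GAPDH (0.98) and WDR54 (0.96) for TPI1, PKM (0.97) and VDAC1 (0.96) for PFKP, and BNIP3 (0.97) and BCKDK (0.95) for ALDOA. They were STAU1 (0.96) and VPS51 (0.95) for HK1, SAV1 (0.96) and EEF1A2 (0.93) for HK2, PIM2 (0.96) and WDTC1 (0.95) for PFKL, PPP2R5D (0.91) and SMARCB1 (0.90) for PFKM, and C4orf3 (0.94) and CCNG2 (0.93) for ALDOC. These values are descriptive, and the lines alone set part of each.

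Genes next to the upper pathway were counted from fixed lists. Of 6 regulators, PFKFB3 and PFKFB4, which make the fructose bisphosphate that activates phosphofructokinase, were called higher in all 4 lines, with mean log2 fold changes of 1.45 and 2.76. C12orf5 (TIGAR), which breaks down that activator, was called lower in 2 lines and higher in 0. Of 14 lower glycolysis genes, 7 were called higher and 2 lower in A549 and in HCT-116 cells among 11 tested, 6 and 0 of 11 in PC3, and 7 and 0 of 10 in T47D cells. ENO1, ENO2, LDHA, PGAM1, PGK1 and PKM were called higher in all 4 lines, with mean log2 fold changes between 1.14 and 1.91. The median over the lower glycolysis genes tested was 0.97 in A549, 1.41 in HCT-116, 0.51 in PC3 and 1.70 in T47D cells, below the median of the 9 upper genes in each line. PGK2 was at 0 counts in all libraries.

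Of 16 genes of pathways that branch from upper glycolysis, 3 were called higher and 4 lower among 15 tested in A549 cells, 7 and 2 of 16 in HCT-116, 2 and 3 of 16 in PC3, and 2 and 1 of 16 in T47D cells. Over all genes tested, 17.6% were called higher and 17.8% lower in A549, 23.3% and 27.0% in HCT-116, 16.6% and 15.7% in PC3, and 6.55% and 6.69% in T47D cells, and the branch counts were not tested against these shares. PGM1, which leads to glycogen, was called higher in all 4 lines, with a mean log2 fold change of 1.41. GFPT2, of the hexosamine branch, was called lower in A549 and higher in PC3 cells. Among opposing enzymes, G6PC3 was called higher in 2 lines, and FBP1 was tested in 2 lines and called in 0. Among other genes of the same steps, ADPGK, which phosphorylates glucose with ADP, was called lower in 3 lines, and HKDC1 was called higher in A549 cells.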

How the data were processed

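Polyadenylated RNA of 24 libraries (4 lines, 2 oxygen states, 3 replicates) was analyzed, with groups from the sample labels. The authors trimmed reads (Trim Galore 0.3.3), aligned them to GRCh37 (HISAT2 2.05), excluded fragments without a unique position (Picard 2.0.1) and counted them on UCSC-defined genes (HTSeq 0.5.4p3). Versions come from the submitters' processing notes. The deposited values are raw counts per gene symbol.

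From these, edgeR 4.0.16 (R 4.3.3) gave fold changes per line (filterByExpr, TMM, quasi-likelihood test, Benjamini-Hochberg adjustment over all genes). The SE of a log2 fold change was derived as its absolute value divided by the square root of the test's F statistic. Interactions used all 24 libraries and normoxic levels the 12 normoxic ones. CPM used TMM factors over all libraries, log2 levels a prior count of 2, and RPKM the MANE transcript of GENCODE 44 lifted to GRCh37 (21584 symbols matched, 93.4%, 1486 through an older symbol). Shares do not depend on library size. Scripts were tested on simulated data. The genes and lists were chosen with earlier results of these data known. All 9 genes are named. Listed genes are named if called in all 4 lines or in opposite directions, if at 0 counts, or if largest in their list, and others named with their values were chosen after these were seen. DESeq2 1.42.0 was an alternative.

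The labels number the replicates alike in normoxia and hypoxia. Deviations of same-numbered libraries correlated over 0.1 for 1 of 3 pairs in A549, 2 in HCT-116, 0 in PC3 and 3 in T47D cells (0.15 to 0.33). The numbers were thus taken to pair libraries in T47D cells only. The main fits nevertheless used no block in any line, so T47D values are unpaired unless the replicate block is named. The between-line tests of shares used same-numbered differences in every line. Some marker and isoform genes are not reported here.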

Additional observations from a re-analysis of the deposited data

Results flagged for a closer look

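The effect of hypoxia differed between the 4 lines for each of the 9 genes (interaction test of edgeR's quasi-likelihood fit over 24 libraries, adjusted over all genes tested). The adjusted p was 0.000134 for HK1, 1.24e-05 for HK2, 1.31e-05 for GPI, 0.000571 for PFKL, 0.00742 for PFKM, 9.32e-06 for PFKP, 5.52e-05 for ALDOA, 2.3e-05 for ALDOC and 0.00113 for TPI1. Over 30 alternatives, the largest adjusted p was 0.0234, for PFKM without normoxic A549 replicate 1, and it was at most 0.00507 for the other genes. PFKM is the gene with estimates of both signs, -0.33 in A549 and -0.26 in PC3 cells against 0.54 in HCT-116 and 0.36 in T47D cells.

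The changes in isoform share, in percentage points, also differed between the lines (exact permutation of the 12 same-numbered pair differences, adjusted over the 5 shares). The size of a change in points is limited by the normoxic share, and relative changes were not compared. The adjusted p was 0.01506 for HK2 of HK1 and HK2, 0.004978 for ALDOC of ALDOA and ALDOC, and 0.01506, 0.0003247 and 0.0006494 for PFKL, PFKM and PFKP of the 3 phosphofructokinase genes. For PFKL, all 3 hypoxic T47D libraries lay below the normoxic ones while all 3 lay above in A549 and PC3 cells. The permutation used same-numbered differences in every line, though pairing of same-numbered libraries was accepted in T47D cells only. In the other 3 lines, deviations of same-numbered libraries correlated at r from 0.07 to 0.29.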

How the results depend on the processing

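Each called gene count kept within 1.5 times its value under all alternatives run (DESeq2, RLE size factors, total counts, no filter or a minimum mean count of 50, the replicate block, a fit of all 24 libraries, and each library left out). Leaving out 1 library gave 8 to 9 of the 9 genes called in A549, 8 to 9 in HCT-116, 8 to 9 in PC3 and 7 to 8 in T47D cells, and 9 throughout for the interaction and the normoxic levels. The replicate block changed no call of the 9 genes, which stayed at 9, 9, 8 and 8. In T47D cells, where numbers were taken as pairs, it moved calls over all genes from 922 higher and 942 lower to 1281 and 1485. With the block, the interaction kept all 9 genes (largest adjusted p = 0.0125, PFKM), and the largest exact p of the 4 shares that changed was 0.00439 (HK2). No estimate of a gene in a line changed sign, and 18 of the 468 estimates under alternatives changed side of the threshold, all of PFKM or of HK1 in T47D cells.

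The mean change in the PFKL share, -0.49 points and not called, was 0.51 with merged exon lengths and 0.22 without length correction (the cause was not tested). Without 1 library, mean share changes ranged from 8.65 to 10.8 points for HK2, 2.66 to 3.03 for ALDOC, -11.6 to -11.3 for PFKM, 11.5 to 12.4 for PFKP and -1.07 to -0.11 for PFKL.

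Over all genes, a fit of all 24 libraries called 1427 higher and 1182 lower in A549 (2452 and 2476 in the line's own fit), 867 and 425 in PC3 (2237 and 2109) and 2231 and 1599 in T47D cells. Leaving out 1 library moved these counts by over 1.5 times in A549 cells (1533 lower without hypoxic replicate 2 and 1467 without normoxic replicate 2), in PC3 cells (1308 and 875 without hypoxic replicate 1, 1323 and 875 without hypoxic replicate 2, 1309 lower without hypoxic replicate 3, 1362 and 1289 without normoxic replicate 1) and in T47D cells (from 180 and 19 without normoxic replicate 1 to 1549 and 1756 without hypoxic replicate 3), with 7 to 9 of the 9 genes called throughout.

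The 9 genes had at least 62 counts in each library. With 3 libraries a group, small changes such as those of PFKM were at the edge of what the test called. Transcript levels do not give enzyme amount or glycolytic rate, and shares between genes depend on the assumed transcript lengths.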
